A study of Homo sapiens with 3 samples.

Results

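The activin and TGF-beta signalling genes described here are 10 genes chosen by name for their roles, of 58735 genes in the deposited tables. Earlier results of these data were known when they were chosen, so their counts and medians beside those of all genes are descriptions only. The members are the ligand genes INHBA, TGFB1 and TGFB2, the activin-binding genes FST and FSTL3, the receptor genes TGFBR1 and TGFBR2, and the intracellular genes SMAD3, SMAD7 and SKIL. The cells were HaCaT, a spontaneously immortalised line of human skin keratinocytes labelled as wild type, and their RNA was sequenced. The CB culture was exposed to carbon black at 25 µg/mL, the S1650b culture to the particulate sample S1650b at 50 µg/mL, and the control culture to no particles. Cells were grown overnight and then kept for 24 h in medium without serum, as the treatment protocol has it for both particles. Each group holds 1 library, so no difference below has a replicate check, no test between groups was possible, and no p-value is given.

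Activin A is a dimer of the INHBA product, and TGFB1 and TGFB2 encode TGF-beta ligands. These ligands bring together receptor kinases that phosphorylate SMAD2 and SMAD3, which then enter the nucleus with SMAD4 and change transcription. Follistatin (FST) and follistatin-like 3 (FSTL3) bind activin outside the cell and block it, SMAD7 blocks the receptors from inside the cell, and SKIL (SnoN) is a nuclear co-repressor of SMADs. SMAD7 and SKIL are themselves known targets of the pathway. In skin, TGF-beta restrains keratinocyte growth, and activin is known for its part in wound repair.

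The libraries held 20946139 (CB), 20417744 (S1650b) and 20658247 (control) gene counts. Markers of keratinocytes were abundant in all 3, with KRT14 at 1790, 608 and 1771 FPKM (fragments per kilobase of exon, scaled to library size) and TP63 at 22.7, 23.7 and 19.1 FPKM in the CB, S1650b and control libraries. The 7 keratinocyte markers summed to 4908, 2375 and 4864 FPKM in the same order. KRT5, KRT14 and SFN were lower in S1650b than in the control, while KRT17 (232 against 174 FPKM), CDH1 (69.5 against 53.5 FPKM), DSP (38.7 against 21.6 FPKM) and TP63 were higher. The summed level of the 7 fibroblast markers was 3.87 FPKM in CB, 1.48 FPKM in S1650b and 9.69 FPKM in the control. Of these 7, 0 were at 0 counts in CB, 1 in S1650b (THY1) and 3 in the control (COL1A2, PDGFRA and THY1). Most of the control sum came from COL3A1 (4.73 FPKM) and DCN (4.19 FPKM), both lower with each particle. COL1A1 went the other way in S1650b, at 0.705 FPKM against 0.617 FPKM in the control. In the CB, S1650b and control libraries, endothelial markers summed to 4.67, 6.98 and 8.72 FPKM, mainly through CDH5. Melanocyte markers summed to 1.62, 1.67 and 1.96 FPKM, and immune markers to 0.018, 0.046 and 0.029 FPKM. In such bulk RNA, fewer cells of a type and less RNA per cell cannot be told apart, and the part of these transcripts in the results was not tested. Folds are ratios of counts scaled to library size (CPM) by the TMM method, with exact 95% conditional binomial intervals, and intervals of levels are exact Poisson intervals. Both cover counting error only, since each group holds 1 library and variation between cultures could not be measured. PCR copies of a molecule could not be told from other reads. Any such copies would make the true counting error larger than shown. The size rule calls a gene higher or lower where the ratio reaches 1.5 in that direction with an interval that does not include 1.

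The sequences in front of 3 members are shown because these genes carry the largest folds of the members against the control. The folds are those of FST and INHBA with CB, and of SKIL with S1650b. Each sequence is the 250 bases before the RefSeq gene start on GRCh38.p14, printed 5′ to 3′ on the strand of the gene. They lie at chr5:53480379-53480628 (plus strand, FST), chr7:41703091-41703340 (minus strand, INHBA) and chr3:170357465-170357714 (plus strand, SKIL). GENCODE 29 places these genes differently: the INHBA window lies within the gene span it gives, the FST window mostly so, and the SKIL window mostly before the span. Capitals mark matches to the motifs searched on both strands.
FST: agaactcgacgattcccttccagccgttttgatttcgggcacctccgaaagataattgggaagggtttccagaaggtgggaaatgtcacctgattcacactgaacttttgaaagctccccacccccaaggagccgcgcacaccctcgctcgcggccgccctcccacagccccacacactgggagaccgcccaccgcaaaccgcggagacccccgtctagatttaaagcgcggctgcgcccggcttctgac
INHBA: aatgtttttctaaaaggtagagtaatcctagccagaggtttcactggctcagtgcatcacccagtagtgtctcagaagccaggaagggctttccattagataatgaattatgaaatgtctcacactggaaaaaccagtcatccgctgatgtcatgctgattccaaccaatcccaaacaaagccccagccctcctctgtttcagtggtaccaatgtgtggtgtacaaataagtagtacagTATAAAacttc
SKIL: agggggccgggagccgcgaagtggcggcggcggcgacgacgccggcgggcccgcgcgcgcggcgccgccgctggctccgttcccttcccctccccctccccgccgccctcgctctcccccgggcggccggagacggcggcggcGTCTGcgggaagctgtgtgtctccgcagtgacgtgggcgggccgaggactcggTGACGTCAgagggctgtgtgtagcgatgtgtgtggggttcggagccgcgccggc

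The FST window is 60.0% GC with 20 CpG sites, the SKIL window 78.4% GC with 42, and the INHBA window 42.8% GC with 1. The motifs searched were the AP-1 sites TGACTCA and TGAGTCA, the SMAD sites CAGAC and GTCTAGAC, the E-box CACGTG, the cyclic AMP response element TGACGTCA and the TATA box TATAAA. The SMAD site CAGAC occurred in the SKIL window, 107 bases before the start and read on the other strand, and 38.0% of all 35116 RefSeq promoter windows of this length hold it. TGACGTCA occurred 54 bases before the SKIL start (1.65% of all windows), and TATAAA 11 bases before the INHBA start (10.7%). The FST window held none of these letter strings, which says nothing about the factors that bind there. Across the 24 starts that RefSeq gives for the 10 members, an AP-1 site was found in front of 1 SMAD3 start (4.203% of all windows), and CACGTG in front of 1 start each of SMAD3 and TGFB2 (6.34%). GTCTAGAC was found at 0 of the 24 (0.182%). CAGAC was found at 10 of the 24 (38.0% of all windows), in front of SKIL, SMAD3, SMAD7, TGFB2 and TGFBR1. TATAAA was found at 4, in front of FSTL3, INHBA, SMAD7 and TGFB2. Of the 24 starts, 8 are of TGFBR1 and 5 of SMAD3. Windows of nearby TGFBR1 starts overlap, so 1 site can count for several starts. All matches are descriptions of sequence, not of binding.

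All 10 members passed the filter of 1 CPM in at least 1 library, 14619 genes in all. Per exon length, SMAD3, the receptor-activated SMAD, was the most abundant member in the control (28.2 FPKM), and INHBA the least abundant in every library (1.12 FPKM in CB, 0.919 FPKM in S1650b and 0.261 FPKM in the control). FST held rank 1 in CB at 58.9 FPKM, rank 7 in S1650b at 5.18 FPKM and rank 4 in the control at 15.8 FPKM. FSTL3 held rank 2 in CB at 27.7 FPKM, rank 1 in S1650b at 35.5 FPKM and rank 3 in the control at 20.04 FPKM. Among the ligands, TGFB1 was at 25.5 FPKM in CB, 22.5 FPKM in S1650b and 20.8 FPKM in the control, and TGFB2 at 3.63, 3.88 and 2.16 FPKM in the same libraries. TGFB1 was thus several times more abundant than TGFB2 in each library. The type II receptor TGFBR2 was at 15.8 FPKM in CB, 16.9 FPKM in S1650b and 12.4 FPKM in the control, above the type I receptor TGFBR1 at 4.70 FPKM in CB, 7.82 FPKM in S1650b and 3.89 FPKM in the control. SMAD7 was at 3.28 FPKM in CB, 5.15 FPKM in S1650b and 2.96 FPKM in the control. SKIL was at 2.66 FPKM in CB, 11.9 FPKM in S1650b and 2.33 FPKM in the control, and held rank 9 in CB, rank 5 in S1650b and rank 8 in the control. SKIL therefore stood above SMAD7 in S1650b and below it in the other libraries. Some neighbours in these orders did not differ beyond their counting intervals. They were FSTL3, SMAD3 and TGFB1, and TGFB2 and SMAD7, in CB, FST and SMAD7 in S1650b, and TGFB1 and FSTL3, and SKIL and TGFB2, in the control.

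**Figure D1:**
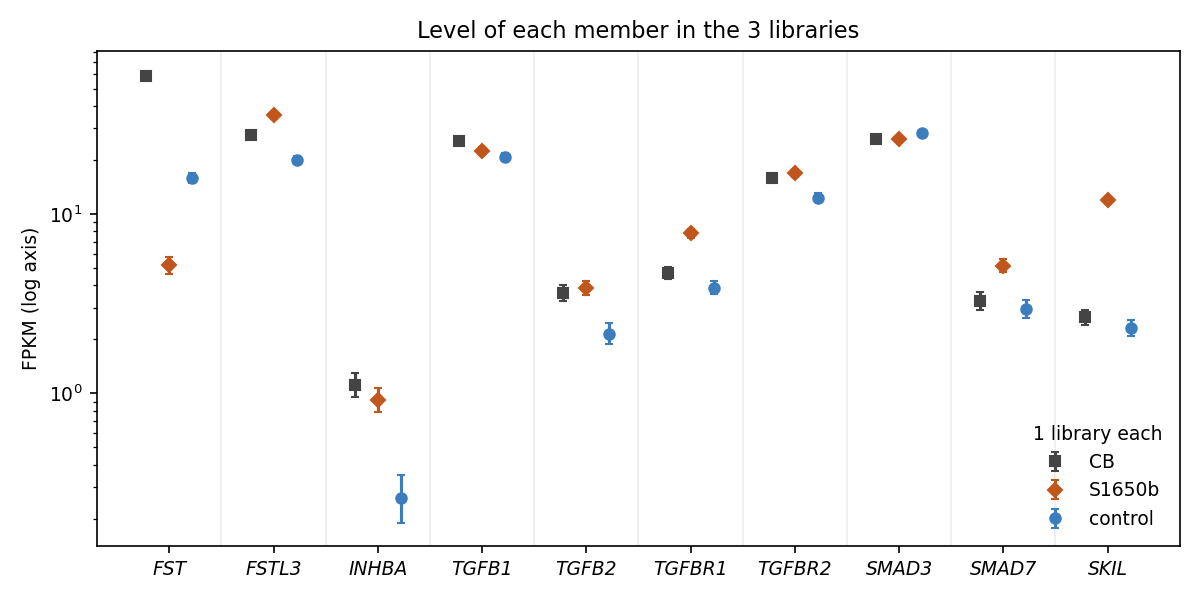
Level of each member in FPKM (log axis) in the CB, S1650b and control libraries, 1 library each, with bars for the exact 95% Poisson interval of the count. FST is at 58.9 FPKM in CB, 5.18 FPKM in S1650b and 15.8 FPKM in the control, while SMAD3 lies between 26.1 and 28.2 FPKM in all 3.

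Carbon black was set against no particles to see how these genes differ after exposure. FST, INHBA and TGFB2 were higher in the CB library and no member was lower, so 3 of 10 members were called higher where 4.71% of all 14619 tested genes were, and 0 of 10 lower where 10.7% of all were. The median log2 fold of the 10 members was 0.25, against -0.0048 over all tested genes.

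FST (ENSG00000134363, GRCh38 chromosome 5, 53480409 to 53487134, plus strand) had 3369 counts in CB and 931 in the control. The CB level was 3.54-fold higher (3.29 to 3.81). INHBA (ENSG00000122641, chromosome 7, 41667168 to 41705834, minus strand), the activin A subunit, had 179 counts in CB and 43 in the control, a 4.07-fold higher level (2.91 to 5.82). Its interval is the widest of the members because its counts are the lowest. TGFB2 (ENSG00000092969, chromosome 1, 218346235 to 218444619, plus strand), a TGF-beta ligand, had 360 counts against 220 and was 1.60-fold higher (1.35 to 1.90). Exons of TGFB2-OT1 cover 26.6% of its exon length, so reads from the overlap cannot be assigned to one of the genes with certainty.

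The other 7 members were called in neither direction with CB. FSTL3, the other activin-binding protein, had 1639 counts in CB and 1218 in the control, with a fold of 1.32 (1.22 to 1.42). The ligand TGFB1 had a fold of 1.16 (1.08 to 1.253). The receptors were near it, with TGFBR1, the type I receptor, at 1.15 (1.02 to 1.29) and TGFBR2, the type II receptor, at 1.22 (1.13 to 1.32). Their intervals lie above 1 but the folds are under the size rule. SMAD7 had 318 counts in CB and 295 in the control, with a fold of 1.05 (0.898 to 1.24), and SKIL had 398 and 359, with a fold of 1.08 (0.938 to 1.255), so differences in these feedback genes were not detectable at this depth. SMAD3 had 4627 counts in CB and 5091 in the control, with a fold of 0.889 (0.8545 to 0.926).

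S1650b was likewise set against no particles. FST was lower, and 6 members were higher: SKIL, INHBA, TGFBR1, TGFB2, FSTL3 and SMAD7. That is 6 of 10 called higher where 21.9% of all tested genes were, and 1 of 10 lower where 19.6% of all were. The median log2 fold of the members was 0.81, against -0.052 over all tested genes. Fold values in this library also follow gene length and base content across the whole table, which matters for several members and is given with them.

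FST had 347 counts in S1650b and 931 in the control, a 3.05-fold lower level (2.69 to 3.46). INHBA had 172 counts in S1650b and 43 in the control and was 3.52-fold higher (2.51 to 5.04). The gene for the activin subunit was therefore higher in S1650b while that for follistatin was lower. FSTL3 (ENSG00000070404, chromosome 19, 676365 to 683399, plus strand) had 2453 counts against 1218 and was 1.77-fold higher (1.66 to 1.90).

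SKIL (ENSG00000136603, chromosome 3, 170357678 to 170396835, plus strand) had 2093 counts in S1650b and 359 in the control. Its fold of 5.13 (4.59 to 5.76) was the highest of the members in this comparison. SMAD7 (ENSG00000101665, chromosome 18, 48919853 to 48952052, minus strand), the inhibitory SMAD, had 584 counts against 295 and was 1.74-fold higher (1.51 to 2.01). SMAD3 (ENSG00000166949, chromosome 15, 67063763 to 67195195, plus strand) had 5354 counts in S1650b and 5091 in the control, with a fold of 0.926 (0.891 to 0.963), under the size rule; with the GC trend alone removed it turned to 1.095. Exons of AC087482.1 cover 1.997% of SMAD3.

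TGFBR1 (ENSG00000106799, chromosome 9, 99104038 to 99154192, plus strand) had 1207 counts in S1650b and 528 in the control, a 2.01-fold higher level (1.82 to 2.23). TGFBR2 (ENSG00000163513, chromosome 3, 30606502 to 30694142, plus strand) had 1796 counts in S1650b and 1152 in the control, with a fold of 1.37 (1.27 to 1.48), under the size rule, which it met (1.58) with scaling by total counts. Within S1650b the ratio of TGFBR1 to TGFBR2 in FPKM was 0.462, against 0.315 in the control, a change of 1.47 (1.29 to 1.67). The folds without the length and GC trends were 1.32 for TGFBR1 and 1.31 for TGFBR2, a change in the ratio of 1.0035, so the unequal change was not seen in that setting. TGFB2 had 451 counts in S1650b and 220 in the control and was 1.81-fold higher (1.53 to 2.13). TGFB1 (ENSG00000105329, chromosome 19, 41301587 to 41353911, minus strand) had 1643 counts in S1650b and 1337 in the control, with a fold of 1.08 (1.01 to 1.16). Exons of HNRNPUL1 cover 6.64% of TGFB1.

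**Figure D2:**
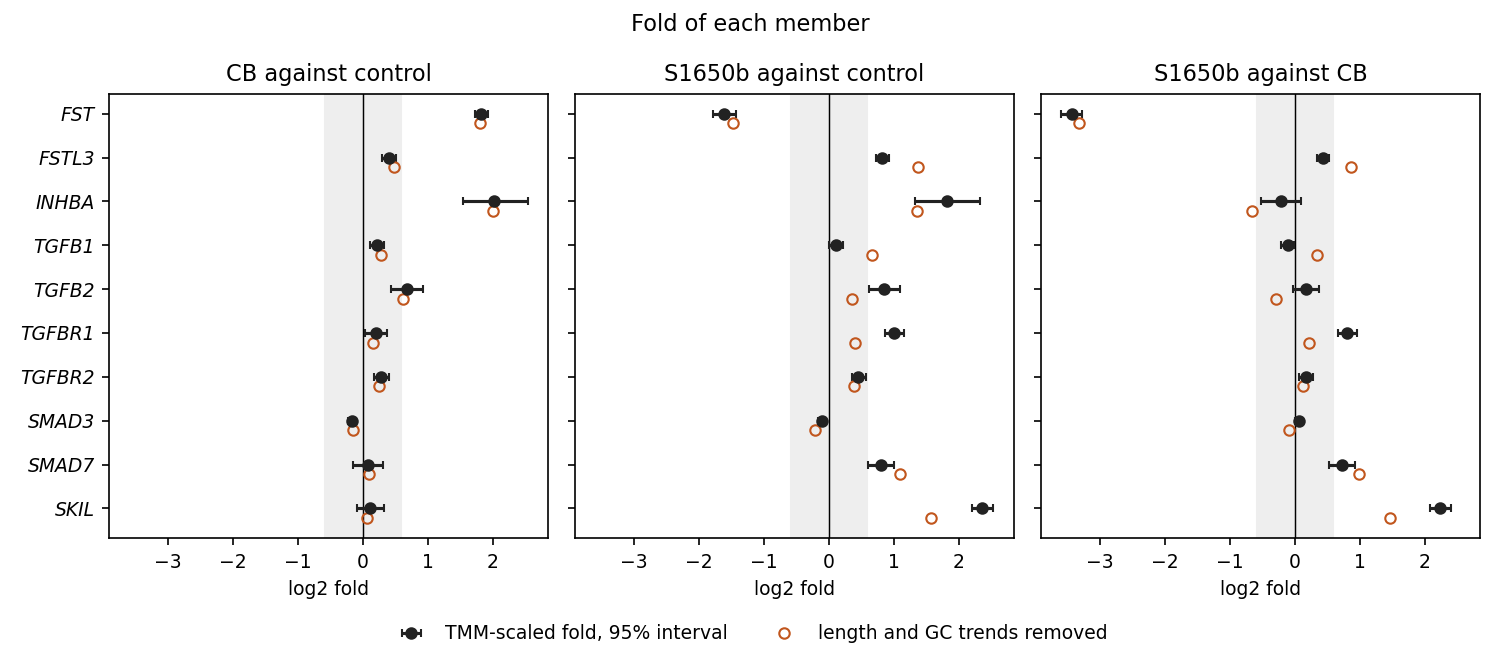
Log2 fold of each member in the 3 comparisons: filled points are TMM-scaled folds with exact 95% counting intervals, open circles the folds with length and GC trends removed, and the grey band marks folds under 1.5. FST is at 1.82 for CB against control and -1.61 for S1650b against control, and SKIL is at 2.36 for S1650b against control.

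The members differ in length and base content. TGFB2, TGFBR1 and SKIL, at 38.9, 39.7 and 37.2% GC in their transcripts, lie in the eighth of tested genes with the lowest GC content. The median log2 fold of all tested genes in that eighth was 0.64 for S1650b against control and 0.05 for CB against control. FSTL3 and TGFB1, at 64.8 and 61.4% GC, lie in the eighth with the highest GC content, where the medians were -0.43 for S1650b and -0.09 for CB. With the trends in both properties removed, the S1650b folds of TGFB2 and TGFBR1 were 1.28 and 1.32 and no longer met the size rule, and the fold of SKIL was 2.98. The fold of TGFB1 became 1.58 and met the rule, FSTL3 was at 2.58, SMAD7 at 2.15 and INHBA at 2.57. FST remained lower, by 2.78-fold, and the CB folds of the members lay between 0.903 and 4.01.

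S1650b and CB were given at different doses, 50 and 25 µg/mL, so their comparison sets these exposures side by side and not the particles at a matched dose. FST was 10.8-fold lower in S1650b than in CB (9.66 to 12.1). It was the only member lower, 1 of 10 where 20.7% of all tested genes were called lower. SKIL was 4.73-fold higher (4.25 to 5.28), TGFBR1 1.75-fold (1.59 to 1.94) and SMAD7 1.65-fold (1.44 to 1.90), so 3 of 10 were called higher where 26.1% of all were, a share near that background. INHBA did not differ beyond counting error, with 172 counts in S1650b, 179 in CB and a fold of 0.865 (0.697 to 1.07). FSTL3, TGFB1, TGFB2, TGFBR2 and SMAD3 had folds between 0.929 and 1.35, under the size rule. With both trends removed the folds of TGFB1, TGFB2 and SMAD3 turned to 1.26, 0.815 and 0.942, and that of SKIL was 2.76. The median log2 fold of the members was 0.17, against 0.016 over all tested genes. With both trends removed TGFBR1 was under the size rule (1.16), FSTL3 passed it as higher (1.82 against 1.35) and INHBA passed it as lower (1.57-fold lower). FSTL3 also met the rule with scaling by total counts (1.54).

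Ratios of members within a library need no scaling between libraries; these were chosen after the values were seen and are descriptions. FST stood at 52.6 times INHBA in FPKM in CB, 5.64 times in S1650b and 60.5 times in the control. Relative to the control, this ratio was 10.7-fold lower in S1650b (exact 95% interval 7.44 to 15.7), while in CB the change of 0.869 had an interval of 0.603 to 1.23. S1650b therefore held less FST for each INHBA transcript than the control, and a difference of CB from the control in this ratio was not detectable at this depth. FST over FSTL3 was 2.12 in CB, 0.146 in S1650b and 0.790 in the control, so FST was the more abundant of the activin-binding transcripts in CB and FSTL3 in the other libraries. FSTL3 over INHBA was 24.8 in CB, 38.6 in S1650b and 76.7 in the control. It was 3.09-fold lower with CB (2.19 to 4.46), or 2.88-fold with length and GC trends removed. With S1650b it was 1.99-fold lower (1.40 to 2.86), and with the trends removed the change was 1.0034, so the lower value in S1650b was not seen then. SKIL over SMAD7 was 0.809 in CB, 2.32 in S1650b and 0.787 in the control, a change of 2.94 for S1650b that was 1.39 with the trends removed. The S1650b change of FST over INHBA was then 7.13-fold lower, and that of FST over FSTL3, 5.40-fold lower as measured, was 7.16-fold lower.

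**Figure D3:**
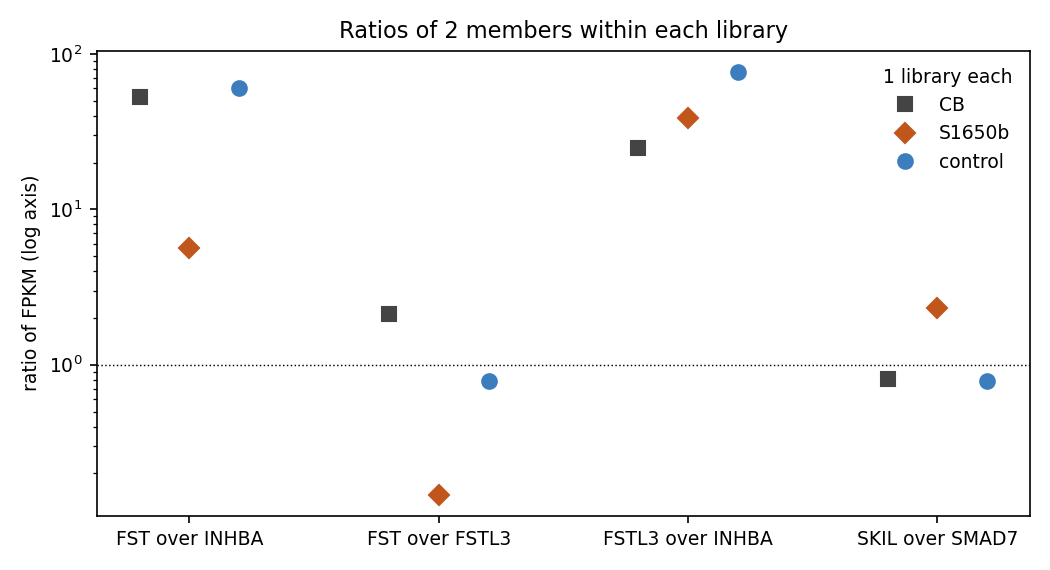
Ratio of the FPKM of 2 members (log axis) within the CB, S1650b and control libraries, 1 library each; the dotted line marks equal levels. FST over INHBA is 52.6 in CB, 5.64 in S1650b and 60.5 in the control, and FST over FSTL3 is above 1 in CB alone.

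The 5 genes whose pair of log2 folds against the control lay nearest to that of FST were TNC, SH2D5, CXCL8, TMEM171 and DDN, out of 10004 genes that reached 10 CPM in any library. TNC, a matrix glycoprotein, was nearest at a Euclidean distance of 0.552, with 856 counts in CB, 116 in S1650b and 215 in the control. CXCL8, a neutrophil chemokine, lay at 0.701, with 558 counts in CB, 105 in S1650b and 177 in the control. The distances rest on folds from 3 libraries that share the control.

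Beyond the 10 members, 78 other genes of the pathway were listed by role, of which 62 passed the filter. This list too was written with earlier results of these data known. With CB, 8 were higher, 9 lower and 45 in neither direction, with a median log2 fold of -0.00071. Of all tested genes, 4.71% were higher and 10.7% lower with CB. With the deposited FPKM in place of scaled counts, 10 of the 62 were higher and 6 lower with CB, where 5.9% of all were higher and 8.36% lower. With S1650b, 28 were higher, 7 lower and 27 in neither direction, with a median of 0.42, where 21.9% of all tested genes were higher and 19.6% lower. With both trends removed, 18 of the 62 were higher and 6 lower with S1650b, where 15.7% of all were higher and 15.7% lower. The counts by role below are to be read against these shares, and with so few genes a role, several lie near them. All folds that follow are against the control unless another comparison is named, and the values for both particles rest on the same control library.

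Of 14 measured genes for ligands and their activation, 2 were higher and 2 lower with CB, the lower count being near the 10.7% of all genes, and 7 were higher and 0 lower with S1650b. THBS1, thrombospondin-1, which can activate latent TGF-beta, was at 95.4 FPKM in CB, 87.9 FPKM in S1650b and 47.3 FPKM in the control. It was 1.92-fold higher with CB (1.87 to 1.97) and 1.86-fold with S1650b (1.82 to 1.91), and the S1650b fold was 1.41 with both trends removed. ITGB6 and ITGAV encode the integrin pair that releases TGF-beta from its latent form. ITGB6 was 5.66-fold higher with S1650b (5.12 to 6.26), and 4.48-fold with both trends removed. Exons of other genes cover 20.6% of ITGB6. ITGAV was 3.503-fold higher (3.34 to 3.67), and 2.07-fold with both trends removed. In CB the fold of ITGB6 was 1.33 and that of ITGAV 0.898, and neither met the rule. INHA, the inhibin alpha subunit, had 19 counts in CB, 78 in S1650b and 42 in the control, 2.26-fold lower with CB (1.29 to 4.11) and 1.64-fold higher with S1650b (1.11 to 2.44), or 2.52-fold with both trends removed.

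Only 2 of 10 listed extracellular antagonists passed the filter. TWSG1, which binds BMP ligands, had a fold of 0.994 with CB and was 1.58-fold higher with S1650b, or 1.19-fold with both trends removed. FSTL1, a follistatin-related secreted protein, had a fold of 0.667 with CB, just under the size rule, and 1.16 with S1650b; with both trends removed it met the rule with CB (1.52-fold lower). Of 8 measured receptors, 2 were lower with CB. They were TGFBR3, the co-receptor betaglycan, at 27 counts in CB and 51 in the control, and ENG, endoglin, at 124 and 192 counts. With S1650b 3 were higher (21.9% of all genes), but 1 with both trends removed (15.7% of all). ENG was lower with S1650b (19.6% of all), by 1.72-fold (1.36 to 2.17), or 1.26-fold with both trends removed. The BMP receptor BMPR2 was 2.93-fold higher (2.64 to 3.26), but 1.47-fold with both trends removed, and the fold of BMPR1A was 1.51, but 0.864 with both trends removed. ACVR1, a type I receptor for BMP and activin ligands, had a fold of 1.01 with CB and was 1.65-fold higher with S1650b (1.41 to 1.92), or 1.68-fold with both trends removed. The activin receptors ACVR1B, ACVR2A and ACVR2B were called in neither direction with either particle.

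Of 19 other SMADs and regulators, 1 was higher and 1 lower with CB, and 7 higher and 3 lower with S1650b. The 1 higher with CB and the 3 lower with S1650b are near the 4.71% and 19.6% of all genes. PMEPA1, a target of TGF-beta that limits its signalling, was at 20.4 FPKM in CB, 64.9 FPKM in S1650b and 12.6 FPKM in the control. It was 1.53-fold higher with CB (1.43 to 1.64) and 5.15-fold with S1650b (4.86 to 5.45), or 5.81-fold with both trends removed. BAMBI, a pseudoreceptor that blocks TGF-beta receptors, was 1.59-fold lower with CB and 1.63-fold lower with S1650b, the S1650b value being 1.19-fold with both trends removed. SMAD2 and SMAD4, which act with SMAD3, were called in neither direction with either particle. SMAD4 had a fold of 1.40 (1.30 to 1.51) with S1650b as measured, which turned to 0.746 with both trends removed. The fold of SMAD2 with S1650b was 1.08 (1.01 to 1.16) as measured. With both trends removed SMAD2 was 2.15-fold lower with S1650b. Its exon length of 36366 bases lies in the longest eighth of tested genes, so this value rests on the trend at an extreme length. With both trends removed, 2 of the 19 were higher with S1650b and 2 lower, where 15.7% of all genes were higher and 15.7% lower.

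Of 19 measured known targets, 5 were higher and 4 lower with CB, and 10 higher and 3 lower with S1650b, the 3 being near the 19.6% of all genes. PTHLH, parathyroid hormone-like hormone, was 3.12-fold higher with CB (2.83 to 3.43) and 2.97-fold with S1650b (2.70 to 3.27). The targets were not all in 1 direction. The list does not separate targets that the pathway raises from those that it lowers, so these directions are not a measure of its activity. ID1, ID2 and ID3, inhibitors of helix-loop-helix factors that BMP induces, were lower with both particles.

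ID1 was at 136 FPKM in CB, 81.0 FPKM in S1650b and 291 FPKM in the control, 2.25-fold lower with CB (2.16 to 2.35) and 3.59-fold with S1650b (3.43 to 3.77). ID3 was at 50.4 FPKM in CB, 29.8 FPKM in S1650b and 122.5 FPKM in the control, 2.56-fold lower with CB and 4.10-fold with S1650b. With both trends removed, the folds with S1650b were 2.35-fold lower for ID1 and 2.71-fold lower for ID3. CDKN2B, a cell cycle inhibitor, was lower with CB and higher with S1650b. It was at 14.8 FPKM in CB, 47.5 FPKM in S1650b and 29.3 FPKM in the control, 2.08-fold lower with CB (1.94 to 2.24) and 1.62-fold higher with S1650b (1.54 to 1.71).

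**Figure D4:**
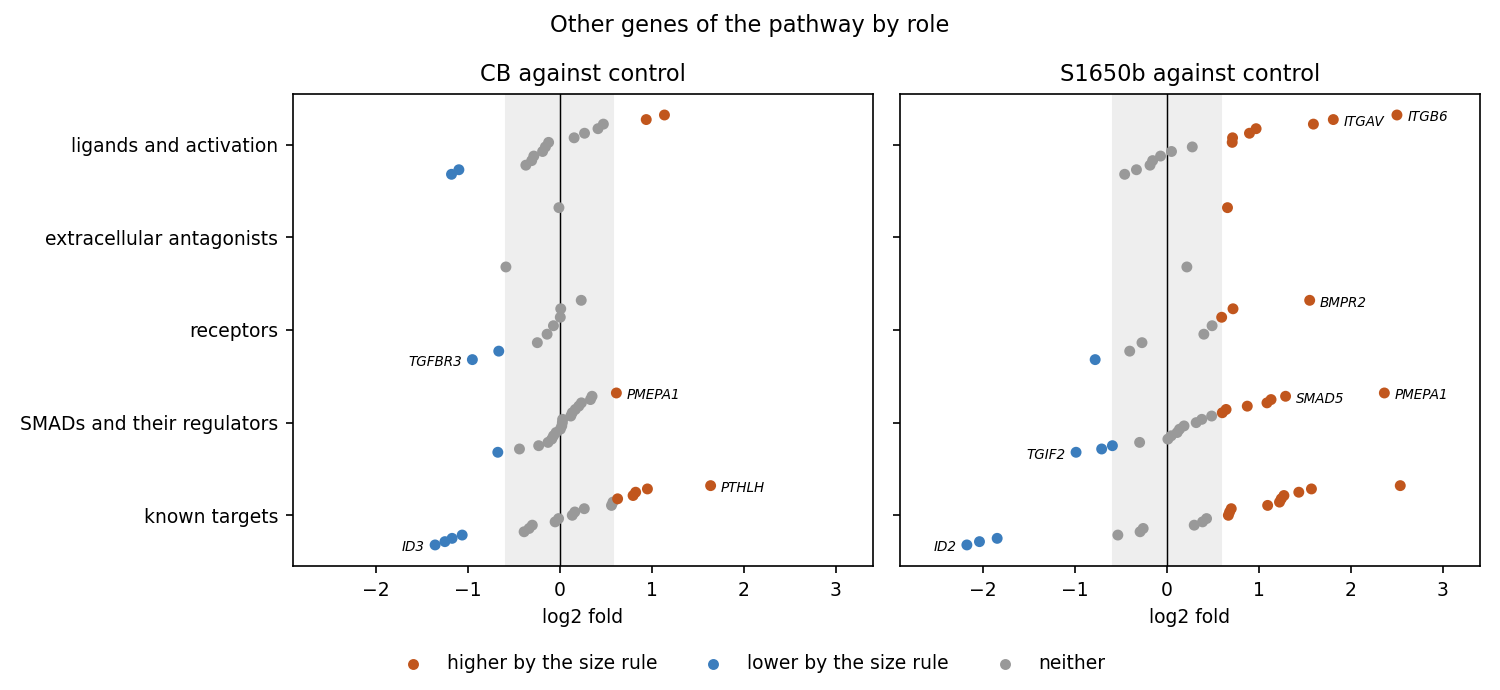
Log2 fold of the 62 other pathway genes that passed the filter, by role, for CB against control (left) and S1650b against control (right); colours mark genes called higher or lower, and the grey band marks folds under 1.5. With S1650b 28 genes are higher and 7 lower, and with CB 8 are higher and 9 lower.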

How the data were processed

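The deposited count table holds whole-number counts per Ensembl gene, and the deposited FPKM table holds FPKM by the authors. Dividing the counts by FPKM gave the exon-union length of GENCODE 29 for all 11364 genes with over 50 counts, up to 1 factor per library; relative to the control the factor was 0.972 for CB and 1.14 for S1650b. CASAVA 1.7 and the builds mm8 and mm9 appear in the submitters' processing notes; these builds are of the mouse and conflict with the human identifiers. The aligner, counting tool and strand setting were not given in the sources used here. Members were matched by symbol through Ensembl identifiers (58207 of 58735 had a symbol), and all 10 were found. Promoter sequences are RefSeq's (GRCh38.p14).

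Scaling by TMM (edgeR 4.0.16, R 4.3.3) gave factors of 0.960 for CB, 1.09 for S1650b and 0.952 for the control. Genes with at least 1 scaled CPM in at least 1 library were kept. Log2 folds used 0.5 added counts. Trends with log10 length and transcript GC were removed by lowess (span 30%), length first. GC was known for 14613 of the 14619 genes. The other alternatives were scaling by total counts, upper quartile or DESeq2 1.42.0 median of ratios, the deposited FPKM with 0.1 added, other filters, protein-coding genes and folds of 1.25 or 2. Python 3.11.15 with scipy 1.17.1 and statsmodels 0.14.6 was used, and the code was tested on simulated data.

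Named were the members, up to 4 called genes per role, comparison and direction ranked by the interval end nearest to 1, and the 5 genes nearest to FST. Not all of these are described, and 1 gene is not reported here. FSTL1, ACVR1B, ACVR2A, ACVR2B, SMAD2, SMAD4, NOG, ACVR1C, ACVRL1, BMPER and NRROS are outside it and were picked with their values already seen, as were the motifs TGACGTCA and TATAAA and the ratios within libraries. The members and lists were chosen with earlier results of these data known.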

Additional observations from a re-analysis of the deposited data

How the results depend on the processing

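With 1 library per group no library could be left out. Of 300 member folds over 10 alternative settings, 235 lay inside the counting interval of the reported fold, 65 outside it, and 0 of the called folds changed sign. Scaling by total counts moved the median log2 fold of all tested genes by 0.20 for S1650b against control and by 0.19 for S1650b against CB, and by 0.011 for CB against control. Calls changed in 13 of these cases. Trend removal changed 11 of them and total counts the other 2, where TGFBR2 (1.58 against control) and FSTL3 (1.54 against CB) were called higher in S1650b.

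The number of members called higher in S1650b against control was 3 with a fold of 2 in place of 1.5, and the number higher in S1650b against CB was 1. With length and GC trends removed, 2 members were lower in S1650b against CB, FST and INHBA. The other counts of members called stayed within 1.5 times of those reported. The order of the members by level was the same with TMM-scaled counts per kilobase. For the other pathway genes, a fold of 2 gave 2 higher with CB, 15 higher and 3 lower with S1650b, and 14 higher and 1 lower for S1650b against CB, where the reported rule gave 8, 28, 7, 25 and 5. A looser fold rule gave 14 higher with CB and 11 lower for S1650b against CB. Those lower with S1650b numbered 4 with total counts and 4 with the GC trend removed, and those higher 18 with both trends removed. For S1650b against CB, total counts gave 29 higher and 2 lower, and upper quartile scaling 29 and 3. Among the alternative settings named here, the share of all tested genes was computed only for S1650b against control with both trends removed. Counts at the others have no such share beside them and cannot be read as an excess. Depth limits INHBA most, with 43 counts in the control.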

Other observations

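Among the listed pathway genes that did not pass the filter, NOG and ACVR1C had 0 counts in the control and more than 3 with a particle. They were chosen after their values were seen. ACVRL1 (2 counts in CB), BMPER (2 in S1650b) and NRROS (1 in S1650b) also had 0 in the control, and these counts are under 3. NOG, the BMP antagonist noggin, had 15 counts in CB, 13 in S1650b and 0 in the control. With the control set at a floor of 3 counts in its library, the ratio of NOG to the floor was 4.89 in CB and 3.82 in S1650b. ACVR1C, a type I receptor for activin and nodal (ALK7), had 3 counts in CB, 12 in S1650b and 0 in the control. Its ratio to the floor was 3.52 in S1650b, and no fold is given for CB. These ratios leave out counting error in the particle libraries, so they are not lower bounds.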
